A study of Homo sapiens with 46 samples.

Results

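The endoplasmic reticulum (ER) folds secreted and membrane proteins, adds their first sugars and disposes of those that misfold. The set described here holds 34 genes of that machinery, of 60668 genes counted. It was chosen by name, as genes with known roles in ER folding, glycoprotein quality control or degradation, and their splicing events were taken from the deposited splicing tables. The choice was made with earlier results of these data known, so counts of called genes are not independent of the data. By role, 10 genes encode luminal Hsp70 and Hsp90 chaperones with their cofactors, 4 encode lectin chaperones and glucose-tagging enzymes, 7 encode disulfide isomerases and oxidases, 10 act in ER-associated degradation (ERAD), and 3 encode sensors or transcription factors of the unfolded protein response. All 34 had counts in every experiment. All 34 passed the filter on low counts in the cell lines, and 32 passed it in the tumours, where ERO1B and DERL3 were left untested.

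A new chain entering the ER is held by BiP, the product of HSPA5, while J-domain cofactors drive its ATP cycle and exchange factors release it. Glycoproteins cycle on the lectins calnexin and calreticulin, and UGGT enzymes add a glucose back to chains that are not yet folded. Disulfide bonds are made by the PDI family, which ERO1 oxidases recharge, and failed chains are trimmed by EDEM mannosidases, handed to the SEL1L-HRD1 ubiquitin ligase and moved to the cytosol for the proteasome. When misfolded chains accumulate, the sensors IRE1 (gene ERN1), ATF6 and PERK raise the production of many of these proteins. IRE1 does so by cutting a short intron out of XBP1 mRNA, which changes the reading frame and yields an active transcription factor.

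RNA was sequenced from 46 samples in 4 experiments. MDA-MB-231, a breast cancer line, and U87MG, a glioblastoma line, were each transfected for 48 h with the antisense oligonucleotide ASO-1570 or its control ASO-CTL, at 200 nM in one experiment and at 50 nM in another. In the third experiment the same lines received siRNA-TRA2B or siRNA-CTL, each at 10 nM. Each of these 12 groups had 3 samples. All were transfected with lipofectamine 3000, the controls included. In the fourth experiment, mice carrying a patient-derived breast carcinoma (PDX) had ASO-CTL or ASO-1570 injected into the tumour at 50 mg/kg, 3 times weekly for 4 weeks, with 5 tumours in each group. The series is titled as a study of an oligonucleotide that switches TRA2B splicing. TRA2B encodes a splicing factor that binds AGAA-type sequences in exons. Each line is a single established culture and the PDX a single donor tumour, so none of the groups samples more than 1 genetic background. The labels call the host mice immunocompetent, and those of the 50 nM and siRNA samples of MDA-MB-231 carry a glioblastoma cell type, against their own titles and cell line entries. Nothing in the labels says that the replicates were separate cultures, so p-values measure the spread between these samples, which may be technical.

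Depth was 259.9 to 356.8 M (mega) counts per sample at 200 nM, 75.0 to 112.8 M at 50 nM and with the siRNA, and 75.3 to 109.6 M in the tumours. Mitochondrial transcripts took 1.73 to 3.16% of counts in the lines and 17.65 to 75.31% in the tumours. At 200 nM, MDA-MB-231 controls expressed the keratin KRT8 at a mean of 962.1 CPM (counts scaled to a common library size). No keratin of the list KRT7, KRT8, KRT18 and KRT19 exceeded 4.001 CPM in the U87MG controls there, which expressed COL1A2 at 331.3 CPM. Of 9 glioma markers, those U87MG controls had CNP at 96.29, CHI3L1 at 38.38, NES at 30.25 and OLIG2 at 3.233 CPM. FABP7, PTPRZ1, GFAP, S100B and SOX2 were each at 0.5991 CPM or less. GFAP was at 1.32 CPM in the 50 nM and 1.709 CPM in the siRNA controls of U87MG. Control tumours expressed KRT7 at 861.4 CPM and EPCAM at 524 CPM. Of plasma cell genes JCHAIN was at 0 and SDC1 at 65.05 CPM, and of immune genes PTPRC was at 0.1254 and CD14 at 8.79 CPM. The target, TRA2B, had log2 changes of -0.87 in MDA-MB-231 and -1.03 in U87MG at 200 nM, -0.76 and -1.13 at 50 nM and -3.11 and -2.83 with the siRNA, all called at an adjusted p below 0.05. In the tumours its change was -0.16 (adjusted p = 0.707).

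In both cell lines ASO-1570 lowered a large share of the ER genes, and it did so at both doses. A gene is called here at an adjusted p below 0.05 in edgeR's quasi-likelihood test over all genes of an experiment. At 200 nM in MDA-MB-231, 20 of the 34 genes fell and none rose, where 13.6% of all genes tested fell and 11.7% rose. At 50 nM in that line, 23 fell and none rose, against 13.2% and 10.1% of all genes. In U87MG the calls went both ways: 17 fell and 6 rose at 200 nM, where 23.9% of all genes fell and 25.8% rose, and 20 fell and 5 rose at 50 nM, against 26.7% and 27.9%. With DESeq2's size factors in place of TMM scaling, the 200 nM split in U87MG was 17 lower and 3 higher. The median log2 change of the 34 genes was -0.40 and -0.33 in MDA-MB-231 and -0.21 and -0.27 in U87MG at 200 and 50 nM, while the median over all genes tested lay between 0 and 0.02 in these 4 comparisons.

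Of the 34 genes, 10 fell in all 4 of these comparisons: HYOU1, CANX, UGGT1, PDIA4, PDIA5, PDIA6, P4HB, EDEM1, ATF6 and ERN1. Beside the exchange factor HYOU1 and the degradation gene EDEM1, these are genes of glycoprotein folding, disulfide chemistry and the unfolded protein sensors. DERL1 was the single gene called in none of the 4. The shares of all genes that fell in all 4 or were called in none were not computed, so these counts have no background. The share of non-mitochondrial counts that the 34 genes took together fell from 1.048 to 1.183% in MDA-MB-231 controls to 0.853 to 0.884% at 200 nM, and from 1.022 to 1.045% to 0.886 to 0.959% in U87MG. At 50 nM it went from 1.18 to 1.284% to 0.93 to 1.01% in MDA-MB-231 and from 1.078 to 1.108% to 0.924 to 1.021% in U87MG. In each of these 4 comparisons every treated library lay below every control. These values are shares of a library, so less RNA per cell and fewer cells that express a gene cannot be told apart.

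**Figure D1:**
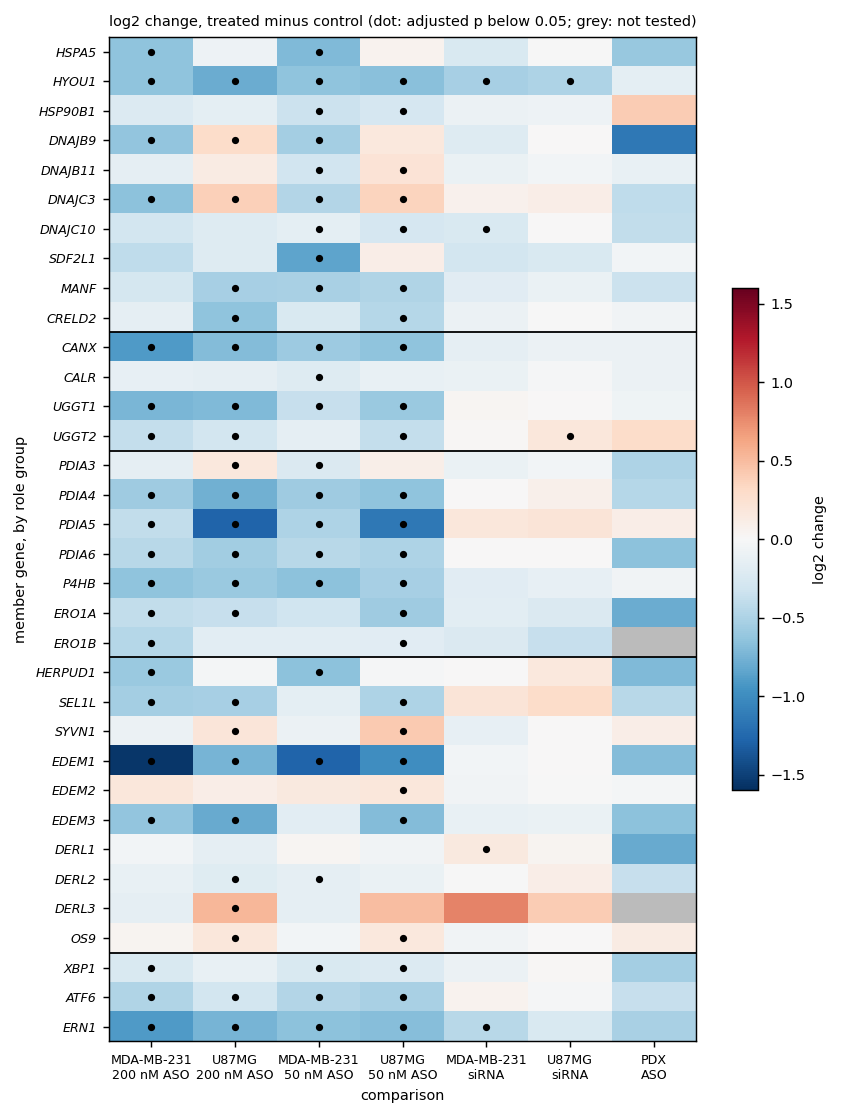
Log2 change of each of the 34 ER genes (rows, by role) in the 7 treated against control comparisons (columns), with called changes marked. The ASO columns of both lines are mostly negative, with 20 and 23 called decreases in MDA-MB-231 and 17 and 20 in U87MG, and the siRNA and tumour columns hold few or no calls.

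Among the Hsp70 and Hsp90 chaperones and cofactors, MDA-MB-231 had 4 of 10 lower at 200 nM and 9 of 10 at 50 nM, where 13.6 and 13.2% of all genes fell. In U87MG 3 fell and 2 rose at 200 nM, and 5 fell and 2 rose at 50 nM. Of all genes in U87MG, 23.9 and 26.7% fell and 25.8 and 27.9% rose, so the 200 nM counts lie near those shares. HYOU1, the large Hsp70-like exchange factor for BiP, read 504.2, 574.1 and 588.8 CPM in MDA-MB-231 controls at 200 nM and 373.9, 325 and 371.3 CPM with ASO-1570. U87MG libraries read 176.2, 181.1 and 179.3 CPM in controls and 109.7, 96.77 and 102.1 CPM in treated libraries. The groups did not overlap in either line, and the log2 changes were -0.64 (SE 0.079, adjusted p = 0.000205) and -0.80 (SE 0.079, adjusted p = 7.55e-06). The changes at 50 nM were -0.64 and -0.67, again called in both lines.

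HSPA5, the gene of BiP itself, behaved differently in the 2 lines. It read 1718, 2063 and 2299 CPM in MDA-MB-231 controls at 200 nM and 1265, 1335 and 1306 CPM in treated libraries. The U87MG values were 1307, 1341 and 1239 CPM in controls and 1263, 1222 and 1191 CPM in treated libraries. The MDA-MB-231 groups were apart and the U87MG groups overlapped, with log2 changes of -0.64 (SE 0.09, adjusted p = 0.000441) and -0.08 (adjusted p = 0.489). At 50 nM the MDA-MB-231 controls held 1832, 2147 and 2204 CPM and the treated libraries 1174, 1259 and 1334 CPM, a change of -0.71 (SE 0.079, adjusted p = 0.000117), while the U87MG change was 0.05 (adjusted p = 0.627). The difference between the lines, MDA-MB-231 minus U87MG, was -0.56 (SE 0.126, adjusted p = 0.00784) at 200 nM and -0.76 (SE 0.112, adjusted p = 0.000808) at 50 nM.

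DNAJC3, a J-domain cofactor of BiP that also inhibits the kinase PERK, fell in one line and rose in the other. It read 91.17, 104.4 and 91.82 CPM in MDA-MB-231 controls at 200 nM and 67.87, 48.57 and 65.84 CPM in treated libraries. U87MG libraries held 138.7, 140.1 and 137.4 CPM in controls and 175.3, 186.9 and 180.8 CPM in treated libraries. No library crossed between the groups in either line. The log2 changes were -0.66 (SE 0.107, adjusted p = 0.00114) and 0.38 (SE 0.107, adjusted p = 0.00986). At 50 nM they were -0.47 (adjusted p = 0.000126) and 0.36 (adjusted p = 0.000142). The difference between the lines was -1.04 (SE 0.151, adjusted p = 0.000731) at 200 nM and -0.83 (SE 0.075, adjusted p = 8.79e-05) at 50 nM. Without replicate 3 of the U87MG controls at 200 nM the rise was 0.27 (adjusted p = 0.0915).

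DNAJB9, a J-domain protein that is itself a target of spliced XBP1, read 26.32, 32.98 and 28.18 CPM in MDA-MB-231 controls at 200 nM and 19.78, 16.97 and 19.81 CPM in treated libraries. Its U87MG controls read 19.46, 17.35 and 16.91 CPM and its treated libraries 21.42, 23.59 and 20.69 CPM. The first pair of groups was apart downwards and the second upwards, with changes of -0.63 (adjusted p = 0.00104) and 0.29 (adjusted p = 0.0303). At 50 nM the fall in MDA-MB-231 was -0.55 (adjusted p = 0.00196) and the U87MG change of 0.17 was not called (adjusted p = 0.16). The U87MG rise at 200 nM was also not called without control replicate 2 (adjusted p = 0.0991), control replicate 3 (0.325), treated replicate 1 (0.0542) or treated replicate 2 (0.116), each an adjusted p. DNAJB11, the J-domain cofactor ERdj3, was called at 50 nM only. It read 102, 105.7 and 104.7 CPM in MDA-MB-231 controls and 88.62, 85.12 and 78.25 CPM in treated libraries, and 103.1, 101.1 and 95.28 CPM against 125.8, 116.9 and 107.1 CPM in U87MG. No library crossed, and the groups moved in opposite directions, by -0.31 (adjusted p = 0.00397) and 0.22 (adjusted p = 0.00923). The U87MG call was lost without control replicate 3, where the change was 0.18 (adjusted p = 0.0511).

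The remaining cofactors fell or were not called. MANF, a small protein that stabilises BiP-substrate complexes, read 84.87, 82.72 and 79.68 CPM in U87MG controls at 200 nM and 62.5, 54.99 and 53.36 CPM in treated libraries, a change of -0.53 (SE 0.108, adjusted p = 0.00131) with no overlap. At 50 nM it read 68.09, 78.31 and 79.39 CPM in MDA-MB-231 controls and 48.81, 50.84 and 57.5 CPM in treated libraries, and 68.53, 74.45 and 64.8 CPM against 51.78, 47.67 and 49.33 CPM in U87MG. Those groups were apart, with called changes of -0.52 in MDA-MB-231 and -0.48 in U87MG, and the change was -0.28 (adjusted p = 0.0757) in MDA-MB-231 at 200 nM. CRELD2, a stress-induced ER resident protein, fell in U87MG by 0.64 at 200 nM and 0.46 at 50 nM and was not called in MDA-MB-231. SDF2L1, which keeps client proteins soluble with ERdj3, fell by 0.84 (adjusted p = 0.000157) in MDA-MB-231 at 50 nM, from 5.251, 6.344 and 5.995 CPM to 3.132, 3.313 and 3.373 CPM. Treated and control libraries did not overlap there, while at 200 nM the same contrast gave -0.41 (adjusted p = 0.0962).

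HSP90B1, the ER Hsp90, read 1525, 1628 and 1714 CPM in MDA-MB-231 controls at 50 nM and 1235, 1250 and 1344 CPM in treated libraries. Its U87MG values were 1634, 1737 and 1740 CPM in controls and 1435, 1297 and 1512 CPM in treated libraries. Treated libraries lay under controls in both lines, with falls of 0.35 and 0.27, and its changes of -0.22 and -0.16 at 200 nM were not called. DNAJC10, a J-domain protein that reduces disulfides of ERAD substrates, read 229, 225.7 and 229.7 CPM in MDA-MB-231 controls at 50 nM and 211.9, 206.3 and 194.3 CPM in treated libraries, and 350, 353.8 and 349.9 CPM against 288.9, 273.6 and 313 CPM in U87MG. It fell by 0.16 in MDA-MB-231 and by 0.27 in U87MG, with no overlap. The former call was lost when any 1 of 5 libraries was left out, with adjusted p-values of 0.0779 to 0.109: control replicates 1, 2 and 3 and treated replicates 2 and 3.

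**Figure D2:**
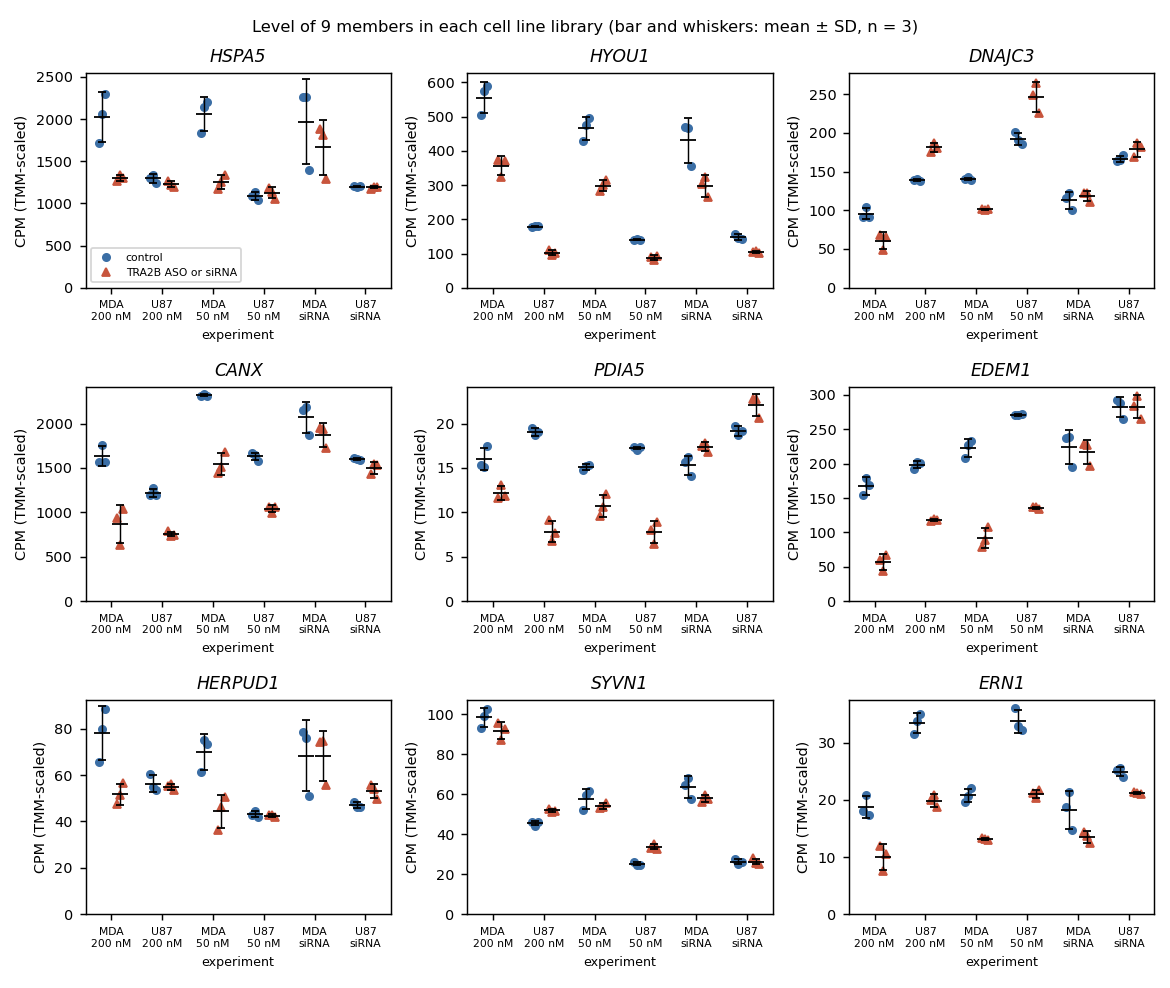
TMM-scaled CPM (y axes, from 0) of 9 ER genes in each cell line library, controls as circles and treated libraries as triangles, with the mean and SD of the 3 libraries of a group. Under ASO-1570 EDEM1 and HYOU1 separate in both lines, HSPA5 and HERPUD1 separate in MDA-MB-231 alone, and DNAJC3 moves in opposite directions.

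In the calnexin cycle, 3 of 4 genes fell in each of the 4 ASO comparisons, where 13.2 to 26.7% of all genes fell. CANX, the membrane lectin calnexin, read 1571, 1761 and 1568 CPM in MDA-MB-231 controls at 200 nM and 935.5, 630.6 and 1040 CPM in treated libraries. The U87MG controls read 1196, 1273 and 1190 CPM and the treated libraries 785.5, 737.7 and 746.3 CPM. All treated values lay under all control values, with changes of -0.91 (SE 0.14, adjusted p = 0.000778) and -0.69 (SE 0.139, adjusted p = 0.00133). At 50 nM they were -0.58 (SE 0.061, adjusted p = 7.99e-05) and -0.65 (SE 0.061, adjusted p = 6.19e-06). Replicate 2 of the treated MDA-MB-231 libraries at 200 nM was the lowest of its group for CANX, UGGT1, SEL1L, EDEM3 and ERN1. It was also the lowest for further genes of the set, HYOU1, DNAJC3, EDEM1 and ATF6 among them. For others, among them HSPA5, HSP90B1, CALR and P4HB, it was the highest, so this library stood apart in both directions.

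UGGT1, the enzyme that re-glucosylates unfolded glycoproteins, read 167, 187.7 and 167.8 CPM in MDA-MB-231 controls at 200 nM and 109.5, 78.16 and 128.1 CPM in treated libraries. Its U87MG controls read 168.8, 183 and 174.7 CPM and its treated libraries 114.1, 101.3 and 106.4 CPM. Both pairs of groups were apart, with changes of -0.73 (SE 0.137, adjusted p = 0.00265) and -0.71 (SE 0.137, adjusted p = 0.00096). Its changes at 50 nM were -0.37 and -0.60, both called. Its paralog UGGT2 read 15.97, 16.19 and 13.92 CPM in MDA-MB-231 controls at 200 nM and 11.98, 9.621 and 13.79 CPM in treated libraries, and 56.21, 57.83 and 54.84 CPM against 48.06, 44.92 and 44.54 CPM in U87MG. The lowest MDA-MB-231 control stood just above the highest treated library and the U87MG groups were apart, with falls of 0.38 (adjusted p = 0.0245) and 0.30 (adjusted p = 0.0392). Those 2 calls were lost on leaving out single libraries: in MDA-MB-231 without control replicate 1, control replicate 2 or treated replicate 1 (adjusted p up to 0.0923), and in U87MG without control replicate 1, control replicate 2 or any treated replicate (adjusted p up to 0.109). At 50 nM UGGT2 fell by 0.38 in U87MG, while the MDA-MB-231 change of -0.15 was not called (adjusted p = 0.154). CALR, the soluble lectin calreticulin and the highest of the 34 per kilobase in the 200 nM controls, was called in MDA-MB-231 at 50 nM alone, at -0.21 (adjusted p = 0.0241). That call was lost without control replicate 2 or 3 or treated replicate 1 or 2, with adjusted p-values of 0.0681 to 0.0896.

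Most disulfide isomerases and oxidases fell: 6 of 7 in MDA-MB-231 and 5 of 7 in U87MG at 200 nM, and 5 of 7 and 6 of 7 at 50 nM. Between 13.2 and 26.7% of all genes fell in these comparisons. PDIA3 was the exception in U87MG, with a called rise at 200 nM. PDIA5, an isomerase linked in other work to ATF6 activation, had the steepest fall in U87MG. It read 19.52, 18.69 and 18.99 CPM in controls at 200 nM and 9.098, 6.774 and 7.626 CPM in treated libraries. MDA-MB-231 controls read 15.38, 15.12 and 17.44 CPM and treated libraries 11.65, 13.12 and 11.78 CPM. The groups were apart in both lines, with changes of -1.28 (SE 0.108, adjusted p = 2.8e-06) in U87MG and -0.39 (SE 0.106, adjusted p = 0.0184) in MDA-MB-231. The fall was 0.89 log2 units smaller in MDA-MB-231 (SE 0.151, adjusted p = 0.00163 for the difference), and at 50 nM, with changes of -0.49 and -1.14, it was 0.65 smaller. The MDA-MB-231 call at 200 nM was lost without control replicate 3 (adjusted p = 0.0765) or treated replicate 1 (adjusted p = 0.06).

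P4HB, the prototype PDI and also the beta subunit of prolyl 4-hydroxylase, read 964.6, 973.7 and 1074 CPM in MDA-MB-231 controls at 200 nM and 619.5, 665.1 and 648.6 CPM in treated libraries. In U87MG it read 1469, 1361 and 1381 CPM in controls and 1005, 849.2 and 919.4 CPM in treated libraries. The groups were apart in both lines, with changes of -0.64 (adjusted p = 0.00015) and -0.60 (adjusted p = 3.4e-05). PDIA4, a larger isomerase with several thioredoxin-like domains, read 403.7, 435.9 and 466.6 CPM in MDA-MB-231 controls and 296.8, 278.2 and 306.2 CPM in treated libraries at 200 nM. Its U87MG values were 481.7, 488 and 484.2 CPM in controls and 317.9, 247.7 and 284.8 CPM in treated libraries. Again no library crossed, with changes of -0.57 (adjusted p = 0.000783) and -0.77 (adjusted p = 1.91e-05). PDIA6, an isomerase that binds BiP clients and attenuates IRE1, read 437, 465 and 476.2 CPM in MDA-MB-231 controls at 200 nM and 324.8, 331 and 352.6 CPM in treated libraries, and 498.9, 505.8 and 492.3 CPM against 369.2, 303.2 and 344.5 CPM in U87MG. It fell by 0.45 and 0.56 at 200 nM and by 0.44 and 0.49 at 50 nM in MDA-MB-231 and U87MG, with every treated library under every control.

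ERO1A, the main oxidase that recharges PDI, read 262.9, 301.7 and 257.5 CPM in MDA-MB-231 controls at 200 nM and 218.2, 177 and 230.7 CPM in treated libraries. In U87MG it read 171.6, 186.8 and 183.9 CPM in controls and 150.6, 119.5 and 148.2 CPM in treated libraries. The groups were apart in both, with changes of -0.39 (adjusted p = 0.0229) and -0.37 (adjusted p = 0.0147). The MDA-MB-231 call was lost without control replicate 2 (adjusted p = 0.103) or treated replicate 2 (0.0568), and the U87MG call without treated replicate 2 (adjusted p = 0.0701). At 50 nM ERO1A changed by -0.32 (adjusted p = 0.0686) and -0.57 (adjusted p = 0.00135). ERO1B, the second oxidase, was called in MDA-MB-231 at 200 nM, at -0.46 (adjusted p = 0.0264), and in U87MG at 50 nM, at -0.18 (adjusted p = 0.0448). The first of these was lost without control replicate 2 (adjusted p = 0.12) or treated replicate 2 (0.0531), and the second without control replicate 2 (0.112), control replicate 3 (0.105) or treated replicate 1 (0.0816). PDIA3, the isomerase that works with the lectins on glycoproteins, fell by 0.23 (adjusted p = 0.0023) in MDA-MB-231 at 50 nM and rose by 0.17 (adjusted p = 0.0413) in U87MG at 200 nM. Without control replicate 3 that U87MG change was 0.05 (adjusted p = 0.663), and the call was also lost without control replicate 1 or 2 or treated replicate 1 or 3 (adjusted p from 0.0898 to 0.138).

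Of 10 degradation genes, MDA-MB-231 had 4 lower at 200 nM and 3 at 50 nM with none called higher, where 13.6 and 13.2% of all genes fell. In U87MG 4 fell and 3 rose at 200 nM and 3 fell and 3 rose at 50 nM. Those U87MG counts lie near the shares of all genes, of which 23.9 and 26.7% fell and 25.8 and 27.9% rose. EDEM1, a mannosidase-like protein that marks glycoproteins for disposal, fell the most of the 34 genes in MDA-MB-231. It read 154, 179.8 and 168.4 CPM in MDA-MB-231 controls at 200 nM and 60.4, 43.23 and 66.91 CPM in treated libraries. In U87MG it read 192.8, 202.2 and 200.4 CPM in controls and 116.5, 119.3 and 118.6 CPM in treated libraries. The gap between the groups was wide in both lines, with changes of -1.56 (SE 0.127, adjusted p = 1.63e-05) and -0.75 (SE 0.124, adjusted p = 0.00033). At 50 nM the treated libraries read 79.35, 89.1 and 107.1 CPM against 208.5, 227.5 and 233.7 CPM in MDA-MB-231, and 136.8, 136.5 and 133.8 CPM against 270.2, 270.5 and 273 CPM in U87MG. Those changes were -1.28 (SE 0.086, adjusted p = 5.72e-06) and -1.0 (SE 0.086, adjusted p = 3.31e-06). The fall was larger in MDA-MB-231 by 0.81 log2 units at 200 nM (SE 0.175, adjusted p = 0.00624). At 50 nM the difference between the lines was not called.

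EDEM3, a soluble mannosidase of the same family, read 65.97, 77.44 and 60.91 CPM in MDA-MB-231 controls at 200 nM and 50.33, 27.45 and 53.79 CPM in treated libraries. Its U87MG values were 49.49, 52.97 and 51.37 CPM in controls and 31.79, 26.09 and 29.72 CPM in treated libraries. Neither pair of groups overlapped, with changes of -0.63 (SE 0.195, adjusted p = 0.032) and -0.81 (SE 0.195, adjusted p = 0.00419). SEL1L, the adaptor of the HRD1 ligase, read 135.3, 161.3 and 137.7 CPM in MDA-MB-231 controls at 200 nM and 107.2, 67.57 and 122 CPM in treated libraries, and 189.2, 207 and 198.2 CPM against 144.5, 128.3 and 138.2 CPM in U87MG. The groups were apart, with changes of -0.55 (adjusted p = 0.0284) and -0.53 (adjusted p = 0.0169). In MDA-MB-231 the EDEM3 call was lost without control replicate 1 (adjusted p = 0.0663) or 2 (0.121), and the SEL1L call without control replicate 2 (0.11) or 3 (0.052). In U87MG the SEL1L call was lost without control replicate 2 (adjusted p = 0.0517) or treated replicate 2 (0.0658). At 50 nM both genes fell in U87MG, by 0.70 and 0.49, and neither was called in MDA-MB-231, where the changes were -0.17 (adjusted p = 0.116) and -0.16 (adjusted p = 0.102). The differences between the lines at 50 nM were called, at 0.53 for EDEM3 and 0.33 for SEL1L.

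SYVN1 encodes HRD1, the ubiquitin ligase that SEL1L binds, and it went the other way in U87MG. Its U87MG libraries read 46.29, 44.28 and 45.88 CPM in controls at 200 nM and 52.72, 51.31 and 51.61 CPM with ASO-1570, and at 50 nM 26.12, 24.74 and 24.7 CPM in controls and 33.31, 35.06 and 32.57 CPM with ASO-1570. All treated libraries exceeded all controls, with changes of 0.19 (SE 0.059, adjusted p = 0.018) and 0.42 (SE 0.063, adjusted p = 0.00017). In MDA-MB-231 the changes were -0.10 (adjusted p = 0.237) and -0.09 (adjusted p = 0.332), and the difference between lines was -0.29 at 200 nM and -0.51 at 50 nM, both called. OS9, a lectin that hands glycoproteins to HRD1, rose in U87MG by 0.18 (adjusted p = 0.0335) at 200 nM and by 0.17 (adjusted p = 0.00289) at 50 nM. Without U87MG control replicate 3 at 200 nM the SYVN1 change was 0.09 (adjusted p = 0.324) and the OS9 change 0.09 (adjusted p = 0.426). The SYVN1 call was also lost without control replicate 2 or treated replicate 1 or 3 (adjusted p from 0.0508 to 0.0823), and the OS9 call without control replicate 1 or 2 or treated replicate 2 or 3 (adjusted p from 0.0841 to 0.104).

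HERPUD1, a membrane protein that assembles HRD1 complexes and is itself quickly degraded, read 65.47, 80.03 and 88.6 CPM in MDA-MB-231 controls at 200 nM and 47.43, 51.28 and 56.57 CPM in treated libraries. For U87MG the values were 60.56, 54.93 and 53.52 CPM in controls and 55.16, 56.19 and 53.64 CPM in treated libraries. The MDA-MB-231 groups were apart and the U87MG groups lay over each other, with changes of -0.59 (SE 0.103, adjusted p = 0.00167) and -0.03 (adjusted p = 0.816). At 50 nM they were -0.66 (adjusted p = 0.00111) and -0.02 (adjusted p = 0.882), and the difference between lines was called at both doses, at -0.56 and -0.63. The derlins, which form part of the exit channel, moved little. DERL2 read -0.19 (adjusted p = 0.0338) in U87MG at 200 nM and -0.15 (adjusted p = 0.0416) in MDA-MB-231 at 50 nM. Those calls were lost without control replicate 1 or 2 or treated replicate 2 or 3 in the first case (adjusted p up to 0.109), and without control replicate 2 or 3 or treated replicate 1 or 2 in the second (adjusted p up to 0.157). DERL1 read -0.05 and -0.15 at 200 nM and 0.03 and -0.06 at 50 nM, none of them called. DERL3, a derlin of secretory cells, had 0.349 to 0.3742 CPM in U87MG controls at 200 nM and 0.4158 to 0.5911 CPM in treated libraries, a called change of 0.53 (adjusted p = 0.0413). It lost its call without any control replicate or without treated replicate 1 or 2 (adjusted p from 0.0784 to 0.186). EDEM2, which starts mannose trimming, was called in U87MG at 50 nM alone, at 0.18 (adjusted p = 0.0487). It lost that call on leaving out any 1 of the 6 libraries (adjusted p from 0.0523 to 0.341).

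At 200 nM all 3 sensor and transcription factor genes fell in MDA-MB-231 and 2 did in U87MG, and at 50 nM all 3 fell in both lines. Between 13.2 and 26.7% of all genes fell in these comparisons. ERN1, the gene of IRE1, read 18.01, 20.85 and 17.38 CPM in MDA-MB-231 controls at 200 nM and 11.93, 7.496 and 10.54 CPM in treated libraries. In U87MG it read 31.53, 33.83 and 34.93 CPM in controls and 20.04, 20.86 and 18.75 CPM in treated libraries. Treated values lay under all control values in both lines, with changes of -0.91 (SE 0.14, adjusted p = 0.000789) and -0.75 (SE 0.139, adjusted p = 0.000713). ERN1 changed at 50 nM by -0.66 (adjusted p = 4.2e-05) and -0.68 (adjusted p = 5.27e-06). ATF6, the sensor that is cut free in the Golgi, had the smallest adjusted p of the 34 genes at 50 nM in both lines. It read 128.5, 127.7 and 130.5 CPM in MDA-MB-231 controls and 92.96, 92.84 and 92.51 CPM in treated libraries, and 125.6, 128.3 and 127.7 CPM against 87.64, 90.52 and 87.06 CPM in U87MG. The groups were tight and far apart, with changes of -0.47 (SE 0.031, adjusted p = 4.71e-06) and -0.52 (SE 0.031, adjusted p = 4.37e-07). At 200 nM they were -0.48 and -0.30, both called.

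XBP1 mRNA as a whole changed little. It read 91.22, 94.37 and 108.9 CPM in MDA-MB-231 controls at 200 nM and 80.71, 83.74 and 85.12 CPM in treated libraries, apart but close, with a change of -0.24 (SE 0.076, adjusted p = 0.0373). At 50 nM it read 73.54, 78.94 and 77.88 CPM in MDA-MB-231 controls and 57.83, 66.25 and 69.44 CPM in treated libraries, and 81.76, 75.88 and 74.95 CPM against 70.78, 66.23 and 62.15 CPM in U87MG. Those groups were also apart, with changes of -0.25 (adjusted p = 0.024) in MDA-MB-231 and -0.22 (adjusted p = 0.0184) in U87MG, and that in U87MG at 200 nM was -0.12 (adjusted p = 0.217). The call at 200 nM was lost without MDA-MB-231 control replicate 2 or 3 or treated replicate 1 (adjusted p from 0.0618 to 0.149). At 50 nM the MDA-MB-231 call was lost without control replicate 2 or 3 or treated replicate 1 (adjusted p from 0.0687 to 0.0834), and the U87MG call without control replicate 1 (adjusted p = 0.065).

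The deposited splicing tables hold the intron that IRE1 removes from XBP1 mRNA as a retained-intron event. The intron spans 26 bases and is placed there at chr22:28796122-28796147 (GRCh38, minus strand). Its sequence follows with 20 bases on each side, the intron as placed in capitals, from a GENCODE 29 transcript. The letters GCAGCA stand both just before the capitals and at their end. Boundaries shifted a few bases upstream would thus give the same spliced product, and the capitals do not mark the exact IRE1 cut sites.
XBP1: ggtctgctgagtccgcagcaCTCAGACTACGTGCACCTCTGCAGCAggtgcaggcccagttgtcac
Percent spliced in (PSI, here a fraction from 0 to 1) was read as the share of transcripts that keep these bases, the unspliced form. The sources used here do not state which form the tables count, and this reading rests on coding exons such as the 85-base exon of HYOU1 lying at or near 1 in controls. Those are cassette exon events, so the reading of an intron event is an assumption. In MDA-MB-231 at 200 nM the PSI was 0.641, 0.578 and 0.599 in controls and 0.796, 0.825 and 0.797 with ASO-1570. At 50 nM it was 0.594, 0.568 and 0.573 in controls and 0.817, 0.782 and 0.721 with ASO-1570. In both experiments every treated library retained the intron more than every control, by 0.2 (SE 0.035) and 0.195 on average. Neither passed the threshold in limma over all events, with adjusted p-values of 0.0652 and 0.165. Across the alternative settings the adjusted p ran from 0.00173 to 0.258 at 200 nM and from 0.0232 to 0.434 at 50 nM, and on the logit scale at 200 nM it was 0.0241.

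In U87MG the control values of this intron were higher than in MDA-MB-231. At 200 nM the PSI was 0.77, 0.8 and 0.788 in controls and 0.837, 0.844 and 0.867 in treated libraries, apart by 0.063 on average (adjusted p = 0.111). At 50 nM it was 0.786, 0.791 and 0.861 in controls and 0.807, 0.834 and 0.869 in treated libraries, which overlapped (difference 0.024, adjusted p = 0.653). With the siRNA the mean moved from 0.568 to 0.643 in MDA-MB-231 (adjusted p = 0.78) and from 0.859 to 0.888 in U87MG (adjusted p = 0.768). In the tumours it went from 0.953 to 0.930 (adjusted p = 0.763). The number of reads behind a PSI value is not in the tables, so its depth is unknown.

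**Figure D3:**
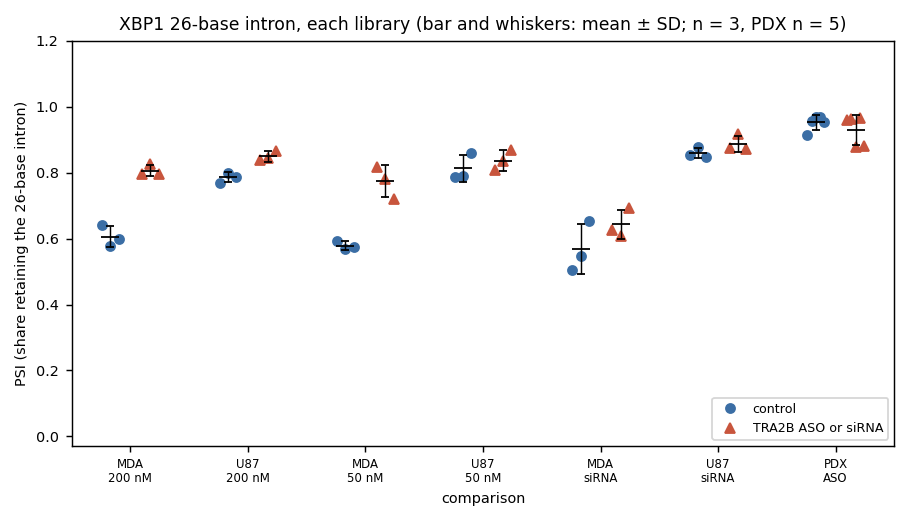
PSI of the 26-base XBP1 intron (y axis) in each library of the 7 comparisons, controls as circles and treated libraries as triangles, with the mean and SD of each group (n = 3, tumours n = 5). The MDA-MB-231 ASO groups do not overlap, at 0.641 or less in controls and 0.721 or more in treated libraries at both doses, and the siRNA groups of each line lie closer together.

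The 2 lines started from different levels. MDA-MB-231 controls held more HYOU1 than U87MG controls, by log2 differences of 1.64, 1.74 and 1.54 in the 200 nM, 50 nM and siRNA experiments, and more SYVN1, by 1.11, 1.19 and 1.27. They held less UGGT2, by -1.87, -1.87 and -1.99, less CRELD2, by -1.42, -1.12 and -1.58, and less EDEM2, by -1.29, -1.18 and -1.22. Of the 34 genes, 8, 12 and 8 were called higher in MDA-MB-231 in the 3 experiments and 14, 12 and 20 were called lower, where 32.7, 36.8 and 37.2% of all genes were called higher and 35.4, 36.2 and 40.1% lower. Per kilobase of transcript, CALR stood highest in the 200 nM controls, at 557.8 CPM per kb in MDA-MB-231 and 490.6 in U87MG. HSPA5 followed at 518.6 and 331.5 CPM per kb, and DERL3 was lowest at 0.1165 and 0.09444 CPM per kb. HYOU1 ranked 9th of the 34 in MDA-MB-231 and 16th in U87MG on that scale.

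The response to ASO-1570 differed between the lines for 8 of the 34 genes at 200 nM. In 7 the change was lower in MDA-MB-231, where 12.1% of all genes were called that way: HSPA5, DNAJB9, DNAJC3, PDIA3, HERPUD1, SYVN1 and EDEM1. PDIA5 was the single gene with a higher value in MDA-MB-231, against 11.5% of all genes. At 50 nM 9 genes were lower (13.9% of all genes), among them HSPA5, DNAJB9, DNAJC3, PDIA3, HERPUD1 and SYVN1 again, joined by DNAJB11, SDF2L1 and OS9. SDF2L1 had the widest gap of these, -0.95 (SE 0.138, adjusted p = 0.000757). PDIA5, SEL1L and EDEM3 were higher in MDA-MB-231 at 50 nM, against 14.3% of all genes. HSPA5, DNAJB9, DNAJC3 and HERPUD1 thus fell in MDA-MB-231 at both doses and were higher or not called in U87MG, and the CANX, UGGT1, P4HB, PDIA4, PDIA6, ATF6 and ERN1 differences between the lines were not called at either dose. With the siRNA the line difference was called for 0 of the 34 genes by edgeR and by DESeq2, with 3 at an unadjusted p below 0.05, where 0.125% of all genes were lower and 0.402% higher.

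With the siRNA against TRA2B few ER genes were called. Total TRA2B counts fell further there than with ASO-1570, but total counts do not separate TRA2B splice forms. The part of TRA2B loss in the ER gene changes was not tested. In MDA-MB-231 3 of 34 fell and 1 rose, where 3.6% of all genes fell and 3.65% rose, and in U87MG 1 fell and 1 rose, against 2.6% and 1.6%. DESeq2 called 5 lower and none higher in MDA-MB-231, and 3 lower and 2 higher in U87MG. HYOU1 fell in both lines: it read 469, 468.3 and 354.5 CPM in MDA-MB-231 controls and 303.6, 324.5 and 263.8 CPM in treated libraries, and 157.4, 143.9 and 143.6 CPM against 105.8, 106.5 and 101.7 CPM in U87MG. Treated libraries lay below controls in each line, with changes of -0.53 (SE 0.1, adjusted p = 0.0079) and -0.50 (SE 0.101, adjusted p = 0.0165). HYOU1 was the single member that fell in all 6 cell line comparisons, and the share of all genes that did so was not computed. Its U87MG siRNA call was lost without control replicate 1 (adjusted p = 0.0732), treated replicate 1 (0.0587) or treated replicate 3 (0.0568).

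The other siRNA calls were small. DNAJC10 fell in MDA-MB-231 from 224.5, 227.8 and 201.7 CPM to 194.3, 185.2 and 175.3 CPM, with no overlap and a change of -0.24 (SE 0.051, adjusted p = 0.0164). ERN1 fell there from 18.69, 21.31 and 14.7 CPM to 14.4, 13.62 and 12.39 CPM, where the lowest control stood just above the highest treated library, by -0.44 (SE 0.107, adjusted p = 0.0299). DERL1 rose in MDA-MB-231 from 107.2, 112.9 and 102.2 CPM to 119.9, 121.3 and 118.5 CPM, by 0.16 (SE 0.037, adjusted p = 0.0242), again with no overlap. UGGT2 rose in U87MG from 90.85, 95.27 and 90.14 CPM to 102.5, 106.3 and 103.7 CPM, by 0.18 (SE 0.031, adjusted p = 0.00774), with all treated libraries above all controls. EDEM1, the gene that fell furthest with ASO-1570 in MDA-MB-231, read 237.5, 238.7 and 195.2 CPM in siRNA controls and 228.6, 226.7 and 197.1 CPM in treated libraries, which overlapped. Not called with the lowest adjusted p of their role in U87MG were PDIA5, SEL1L and ERN1. PDIA5 read 19.73, 18.66 and 19.11 CPM in controls and 22.81, 22.8 and 20.67 CPM in treated libraries (0.21, adjusted p = 0.0965). SEL1L read 273, 280.5 and 285.1 CPM against 332.7, 358.2 and 332.8 CPM (0.29, adjusted p = 0.0867), and ERN1 read 25.14, 25.55 and 24.05 CPM against 21.36, 21.19 and 20.94 CPM (-0.24, adjusted p = 0.27). These groups did not overlap. In MDA-MB-231 the like genes were PDIA5, at 15.62, 16.19 and 14.06 CPM against 17.42, 17.83 and 16.82 CPM (0.18, adjusted p = 0.108), and CANX, which overlapped at 2155, 2189 and 1870 CPM against 1954, 1940 and 1720 CPM (adjusted p = 0.28). The DNAJC10 call was lost without control replicate 1 or 2 or treated replicate 2 or 3 (adjusted p from 0.057 to 0.0826), and the ERN1 call without control replicate 1 or 2 or any treated replicate (0.0563 to 0.105). The DERL1 call was lost without control replicate 1 or 3 or treated replicate 1 or 2 (adjusted p from 0.0825 to 0.0986).

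Replicate 3 of both MDA-MB-231 siRNA groups stood below its partners for HSPA5, with 1391 CPM against 2261 and 2260 in controls and 1294 CPM against 1883 and 1814 in treated libraries. Without these 2 libraries 7 of the 34 genes fell and none rose, HSPA5 among them at -0.30 (adjusted p = 0.00645). The share of all genes called in that reduced fit is not given here, so the count has no background. The libraries were picked after their values were seen, so this count is a description.

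Set against each other, the changes in the 50 nM ASO-1570 and siRNA experiments differed for some of these genes. In MDA-MB-231 9 of 34 changed more negatively with the ASO and none more positively, where 7.03% and 4.16% of all genes were called in those directions, and in U87MG 17 and 1, against 19.5% and 14.3%. EDEM1 differed by -1.25 in MDA-MB-231 (SE 0.147, adjusted p = 1.02e-06) and -1.04 in U87MG, ATF6 by -0.54 in MDA-MB-231 (SE 0.07, adjusted p = 4.11e-06), and PDIA5 by -0.68 and -1.39. HYOU1 differed by -0.11 (adjusted p = 0.69) and -0.21 (adjusted p = 0.196), neither called. These contrasts cross 2 experiments, so the agent and the experiment cannot be told apart. The 200 nM and 50 nM changes differed, by edgeR and by DESeq2, for 0 of the 34 genes in MDA-MB-231 (0.104% of all genes lower and 0.0541% higher; 5 genes under an unadjusted p of 0.05) and for ATF6 in U87MG, by 0.28 (adjusted p = 0.0367), where 1.07% of all genes were called higher and 0.587% lower.

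The called splicing events of these genes were all in U87MG. An event is called at an adjusted p below 0.05 and a PSI difference of at least 0.10. In U87MG at 200 nM 30 of 165 events tested were called, in 13 of the genes, which is 18.2% against 19.6% of all events tested. At 50 nM 8 of 124 events in 5 genes were called, 6.45% against 13.8% of all. In MDA-MB-231 limma called 0 of 149 events at 200 nM and 0 of 107 at 50 nM, against 1.42% and 0.194% of all events. At an unadjusted p below 0.05 there were 26 and 5 such events, and limma on logit PSI called 1 and 0. The siRNA gave 0 of 113 in MDA-MB-231 and 0 of 109 in U87MG, with 7 and 5 at an unadjusted p below 0.05 and 0% of all events called. Of the 30 in U87MG at 200 nM, 26 were cassette exons, and 27 of the 30 had a lower PSI with ASO-1570. Of all 16064 events called there, 11581 had a lower PSI. At 50 nM 4 of the 8 were lower and 4 higher, where 6659 of all 9227 called events were lower.

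The following exons carry the largest or the best-supported of these changes, each from a GENCODE 29 transcript on GRCh38, written 5′ to 3′ on the gene's strand with AGAA, a core of the TRA2B binding sequence, in capitals where it occurs. The HYOU1 exon is chr11:119047734-119047818 (minus strand, exon 22 of 26), the UGGT1 exons are chr2:128156392-128156415 (exon 21 of 41) and chr2:128180890-128181072 (exon 36 of 41), the SYVN1 exon is chr11:65130002-65130172 (minus strand, exon 13 of 16) and the HSP90B1 exon is chr12:103931711-103931748. All but the last are coding. The HSP90B1 exon occurs in 1 annotated transcript, which is marked for nonsense-mediated decay.
HYOU1 85-base exon: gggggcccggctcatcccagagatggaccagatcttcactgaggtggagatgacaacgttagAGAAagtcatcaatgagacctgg
UGGT1 24-base exon: gaatgtcctccaaggaaatctatg
UGGT1 183-base exon: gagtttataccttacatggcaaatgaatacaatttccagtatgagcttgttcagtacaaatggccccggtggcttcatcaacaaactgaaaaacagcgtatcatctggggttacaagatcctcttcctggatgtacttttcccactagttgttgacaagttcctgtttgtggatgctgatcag
SYVN1 171-base exon: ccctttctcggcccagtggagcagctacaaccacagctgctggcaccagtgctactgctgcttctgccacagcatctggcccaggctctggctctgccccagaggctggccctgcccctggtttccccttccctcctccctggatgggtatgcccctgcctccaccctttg
HSP90B1 38-base exon: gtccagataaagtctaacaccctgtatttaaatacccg
The letters AGAA occur once in the HYOU1 exon, as they do at least once in 50.8% of the 1467 internal exons of that length. They are absent from the other 4, where 18.7, 68.8, 70.3 and 35.5% of exons of the same 24, 183, 171 and 38 bases hold them.

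The HYOU1 exon had a PSI of 1 in all 3 U87MG controls at 200 nM and of 0.459, 0.479 and 0.522 in treated libraries in one of 2 events over it, a difference of -0.513 (adjusted p = 0.000553). In the other event, which differs in its upstream exon, treated libraries read 0.797, 0.84 and 0.738 against 1 in controls (adjusted p = 0.00605). Skipping was absent from every control and present in every treated library, and the exon's length is not a multiple of 3. In MDA-MB-231 at 200 nM a single treated library of 3 departed from 1 in each event, to 0.471 and 0.939 (adjusted p = 0.593 and 0.614). The exon was called in U87MG at 200 nM alone, and the total level of HYOU1 fell in every cell line comparison. A link between the skipping and the level was not tested.

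UGGT1 had 2 exons that moved in opposite directions. The 24-base exon had a PSI of 0.962, 0.95 and 0.952 in U87MG controls at 200 nM and 0.767, 0.767 and 0.801 in treated libraries, a difference of -0.176 (adjusted p = 0.0037). The 183-base exon went from 0.692, 0.726 and 0.675 to 0.998, 0.997 and 1, a difference of 0.301 (adjusted p = 0.00126). Both were also called at 50 nM, where the groups stayed apart and the differences were -0.16 (adjusted p = 0.0096) and 0.215 (adjusted p = 0.0036). The 24-base exon lost its call at 50 nM on leaving out any 1 control (adjusted p from 0.0562 to 0.0575). In MDA-MB-231 at 200 nM the means went from 0.964 to 0.887 (adjusted p = 0.203) and from 0.953 to 1 (adjusted p = 0.201). Both lengths are multiples of 3.

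SYVN1, whose total counts rose in U87MG, lost inclusion of its 171-base exon there. The PSI was 0.939, 0.97 and 0.846 in controls at 200 nM and 0.511, 0.391 and 0.424 in treated libraries, and at 50 nM 0.892, 0.942 and 0.852 in controls and 0.55, 0.497 and 0.633 in treated libraries. The groups were apart at both doses, with differences of -0.476 (adjusted p = 0.00257) and -0.335 (adjusted p = 0.0104). In MDA-MB-231 at 200 nM the difference was -0.012. A form of the exon that is 174 bases long changed by -0.419 and -0.344 in U87MG. At 200 nM 4 further SYVN1 events, over 61, 104, 533 and 49 bases, changed by -0.18, -0.12, -0.175 and -0.149. The 533-base stretch contains the others, and those of 61 and 104 bases overlap. These are thus events over 1 region and not separate exon losses.

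The HSP90B1 38-base exon went from 1, 0.705 and 0.582 in U87MG controls at 200 nM to 0.011, 0.018 and 0.005, a difference of -0.751 (adjusted p = 0.00589). In MDA-MB-231 it went from 0.443, 1 and 1 to 0.017, 0.02 and 0.116, a difference of -0.763 (adjusted p = 0.0931). Control libraries disagreed with each other in both lines and treated libraries were uniformly low. A 154-base exon of ERO1A that is likewise annotated in a single decay-marked transcript went from 0.711, 0.663 and 1 to 0.161, 0.235 and 0.454 in U87MG (difference -0.508, adjusted p = 0.0263). That call was lost without control replicate 1 or 3 or treated replicate 1 or 2 (adjusted p from 0.0538 to 0.0814).

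The remaining called events were smaller or less stable. PDIA3's 80-base exon 11 of 13 fell from a mean of 0.95 to 0.533 in one event (-0.417, adjusted p = 0.0134) and by 0.12 in another. The 12-base exon of ERO1B fell by 0.306 (adjusted p = 0.044) and its 83-base exon by 0.12, the 126-base exon of EDEM2 by 0.25 (adjusted p = 0.0465), and the 74-base exon 9 of 12 of EDEM1 by 0.104 (adjusted p = 0.00607). In CANX, exons of 74 and 59 bases fell by 0.103 and 0.107, and a mutually exclusive exon event over the 59-base exon changed by -0.106 (adjusted p = 0.0162). In DNAJB11, exons of 98 and 133 bases fell by 0.15 and 0.125, and in HSP90B1 and UGGT2, exons of 142 and 175 bases fell by 0.121 and 0.104. DERL2 lost exons of 94 and 289 bases (-0.107 and -0.117), the former also in a mutually exclusive exon event (-0.112, adjusted p = 0.0111), and retained more of a 153-base intron, from a mean of 0.663 to 0.961. At 50 nM that intron went from 0.67, 0.825 and 0.772 to 0.937, 0.961 and 0.911, all treated libraries above all controls (0.181, adjusted p = 0.0484). The 94-base DERL2 exon went from 0.928, 0.942 and 0.911 to 0.81, 0.841 and 0.823 there (-0.102, adjusted p = 0.0361). An alternative 5′ splice site of DERL2, with 195 bases at stake, went from 0.017, 0.016 and 0.012 to 0.124, 0.155 and 0.154 at 200 nM (0.129, adjusted p = 0.00315). The 153-base intron lies within these 195 bases and within the 289-base exon, which also contains the 94-base exon. A PSI is relative to the forms compared in its own event. The mean of 0.961 is thus not the share of all DERL2 RNA that keeps the intron. At 50 nM a 101-base intron of DERL3 rose by 0.673 (adjusted p = 0.0178) and a 276-base CANX exon from 0.087, 0.093 and 0.07 to 0.329, 0.307 and 0.192 (0.193, adjusted p = 0.0254). Leaving out single libraries took away 22 of these 38 U87MG event calls at least once.

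**Figure D4:**
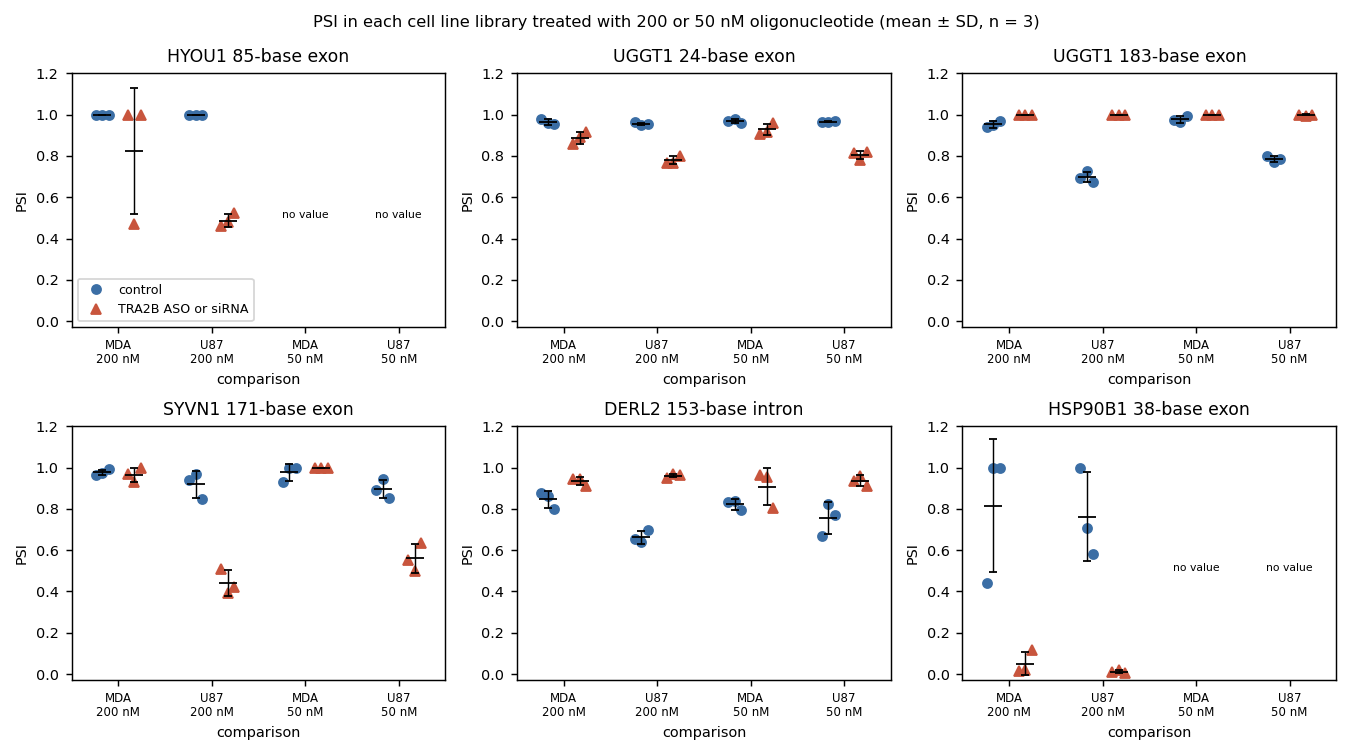
PSI (y axes) of 5 exons and 1 intron of the ER genes in each library of the ASO experiments in the lines, controls as circles and treated libraries as triangles, with the mean and SD of the 3 libraries of a group. The HYOU1 85-base exon drops from 1 to between 0.459 and 0.522 in U87MG at 200 nM, in the event over it with the larger change. The UGGT1 183-base exon goes up and the SYVN1 171-base exon goes down in that line.

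Promoters of many ER genes carry the ER stress response elements that ATF6 and spliced XBP1 bind. RefSeq promoters (GRCh38.p14, 250 bases before to 50 after the start) were at hand for 31 of the 34 genes, and both strands were searched. ERSE, the letters CCAAT and CCACG with any 9 bases between them, occurred in 8 of them (HSPA5, HSP90B1, CRELD2, CANX, CALR, PDIA6, ERO1B and XBP1), 25.8% against 0.0916% of the promoters of 27305 genes. ERSE-II, ATTGG and CCACG with any single base between them, occurred in 3 (HYOU1, SDF2L1 and HERPUD1), 9.68% against 0.0696%, and the UPRE core TGACGTGG in 2 (HYOU1 and DNAJC10), 6.45% against 0.927%. The following stretches show an element of each kind, in capitals, for a gene that fell in MDA-MB-231 alone, a gene that fell in every line comparison, and a gene of degradation, at chr9:125241364-125241463, chr11:119057266-119057405 and chr16:56932012-56932051. In HYOU1 the UPRE overlaps the first ERSE-II.
HSPA5: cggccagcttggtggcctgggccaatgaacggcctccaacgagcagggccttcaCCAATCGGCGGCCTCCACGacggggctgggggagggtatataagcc
HYOU1: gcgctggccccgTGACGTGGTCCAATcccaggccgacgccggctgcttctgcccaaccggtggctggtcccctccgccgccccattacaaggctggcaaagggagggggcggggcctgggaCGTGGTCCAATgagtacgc
HERPUD1: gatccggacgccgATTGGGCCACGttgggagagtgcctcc
Genes with and without any of the 3 elements both held called decreases. Of the 12 with an element, 7 and 10 fell in MDA-MB-231 at 200 and 50 nM and 4 and 8 in U87MG. Of the 19 without one, 13 and 12 fell in MDA-MB-231 and 13 and 12 in U87MG. Called rises in U87MG numbered 0 and 0 of the 12 and 4 and 5 of the 19, and MDA-MB-231 had none in either set. Of all genes tested, 13.6 and 13.2% fell in MDA-MB-231 and 23.9 and 26.7% in U87MG, where 25.8 and 27.9% rose. The elements are matches of letters, and binding was not measured.

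Neighbouring pathways give the setting. These lists were drawn up by function, with earlier results of these data known, so their counts are not independent of the data either. Of all genes at 200 nM, 13.6% fell and 11.7% rose in MDA-MB-231, and 23.9% fell and 25.8% rose in U87MG. Of 12 genes of the PERK arm and the integrated stress response, which slows translation and induces stress factors, at 200 nM MDA-MB-231 had 2 called higher and 4 lower, with a median of -0.15, and U87MG had 7 higher and 1 lower, with a median of 0.50. PPP1R15A, the phosphatase cofactor that restarts translation, went from a mean of 115.1 to 288.4 CPM in U87MG, a rise of 1.32 (adjusted p = 3.63e-06). The difference between lines at 200 nM was called for 7 of the 12 genes, all lower in MDA-MB-231, where 12.1% of all genes were called that way. Of 26 genes of the translocon, signal peptidase and oligosaccharyltransferase, which bring chains into the ER, 16 fell and 2 rose in MDA-MB-231 and 10 fell and 4 rose in U87MG at 200 nM. SSR2, a translocon-associated subunit, had changes of -0.99 and -1.64. Among further folding and glycan-trimming genes 15 fell and 0 rose in MDA-MB-231 and 16 fell and 4 rose in U87MG, of 34 tested, with CLGN, a calnexin homologue, at -0.69 and -1.19. Of 28 genes of ER to Golgi transport 15 fell in MDA-MB-231 with 0 called higher, and 14 fell and 4 rose in U87MG. Further ERAD genes, 29 tested, gave 10 lower and 2 higher in MDA-MB-231 and 12 lower and 6 higher in U87MG.

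In the tumours none of the 32 ER genes tested was called by edgeR or by DESeq2, and none of 23812 genes was, so 0% of all genes stood behind that count. On simulated tumour counts edgeR recovered 0% of changes of 0.75 log2 units and 24% of changes of 1.5, so an absent call says little here. At an unadjusted p below 0.05 edgeR had 1 of the 32, ERO1A, with a smallest adjusted p of 0.487 over the 32. ERO1A ran from 29.7 to 46.82 CPM in control tumours, with a median of 40.96, and from 13.21 to 33.87 CPM, with a median of 21.62, in treated ones. The ranges overlapped slightly, and the change was -0.79 (SE 0.246, adjusted p = 0.487). The lowest adjusted p of the other roles fell to DNAJC10, UGGT2, DERL1 and ERN1, with changes of -0.39, 0.29, -0.81 and -0.52 and adjusted p-values of 0.487, 0.649, 0.487 and 0.487. DNAJC10 ran from 85.08 to 126.9 CPM (median 112.8) in controls and from 68.51 to 104.4 CPM (median 82.0) in treated tumours, and UGGT2 from 23.19 to 53.62 CPM (median 29.37) and from 23.99 to 56.22 CPM (median 46.32). DERL1 ran from 23.99 to 80.24 CPM (median 49.16) and from 13.28 to 67.99 CPM (median 19.07), and ERN1 from 24.1 to 47.29 CPM (median 33.34) and from 15.54 to 35.92 CPM (median 22.47). The ranges overlapped in each. HSPA5 ran from 41.04 to 170.5 CPM with a median of 103.1 in controls and from 34.47 to 158.1 CPM with a median of 39.12 in treated tumours. HYOU1 ran from 53.94 to 152.6 CPM (median 83.7) and from 54.29 to 131.7 CPM (median 64.04). EDEM1 ran from 5.587 to 27.69 CPM (median 16.16) and from 3.988 to 22.14 CPM (median 5.557), and XBP1 from 132.2 to 437.1 CPM (median 202.8) and from 65.94 to 382 CPM (median 103.5). Control and treated tumours overlapped over most of their range for all of these, with changes of -0.61, -0.16, -0.70 and -0.55 that were not called. No splicing event of the 164 tested was called by limma, with 8 at an unadjusted p below 0.05 and 0% of all events called.

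The spread between tumours went with their mitochondrial content. In 4 tumours mitochondrial transcripts took 53.89 to 75.31% of the counts, 1 of them a control and 3 treated, and in the other 6 they took 17.65 to 38.06%. The 34 ER genes took 0.464 to 0.544% of non-mitochondrial counts in the first 4 and 0.613 to 0.944% in the other 6, so the 2 sets did not overlap. Without the 4 tumours no gene of 33 tested was called, 0 were under an unadjusted p of 0.05, and HSPA5 changed by -0.03, HYOU1 by 0.20 and XBP1 by 0.08. The part of the mitochondrial share in the tumour comparison was not tested. With 4 controls and 2 treated tumours left, that comparison has little precision.

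**Figure D5:**
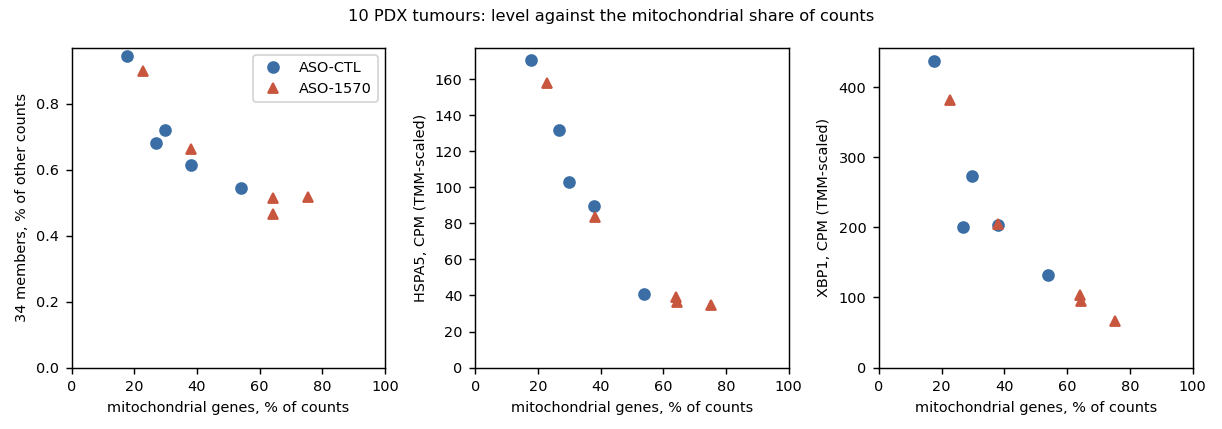
Share of non-mitochondrial counts taken by the 34 ER genes (left, percent), HSPA5 CPM (middle) and XBP1 CPM (right) against the mitochondrial share of all counts (x axes, percent) in the 10 tumours, control as circles and treated as triangles. The 4 tumours above 50% on the x axis lie at 0.464 to 0.544% in the left panel and the other 6 at 0.613 to 0.944%.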

How the data were processed

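RNA was sequenced from 46 samples as paired reads of 151 bases from a stranded mRNA kit, per the labels' protocols. Per the submitters' processing notes FastQC, MultiQC, Trimmomatic, STAR and StringTie were used with GRCh38 (hg38), with no versions stated. The deposited gene tables hold raw counts made by the authors. Whether counting used strand, and how mouse reads in the tumours were handled, is not given in the sources used here. The deposited splicing tables hold the authors' PSI values as a fraction from 0 to 1, are named in the labels as rMATS matrices with no version or settings, and carry no depth. Which form a PSI counts is not stated, and it was read as inclusion or, for introns, retention.

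Groups came from the labels, and 60340 of 60668 gene identifiers had a symbol. Counts were filtered (filterByExpr), scaled by TMM and fitted with edgeR 4.0.16 (R 4.3.3), all groups of an experiment together, with quasi-likelihood tests and Benjamini-Hochberg adjustment over all genes. A call is an adjusted p below 0.05. Contrasts across experiments used 1 joint fit. PSI events of the 2 groups compared, with no missing value and a range of at least 0.05, were tested with limma 3.58.1 (trend), and a call also needed a difference of at least 0.10. Replicates differed by more than sampling noise and all were kept. Alternatives were DESeq2 1.42.0, its size factors within edgeR, no low-count filter, 2 groups only, a replicate block, single libraries left out, mitochondrial genes removed (tumours), and for PSI a range of 0.10, logit values and all groups in the fit. Scripts were tested on simulated data. There edgeR recovered 78% and 97% of changes of 0.75 and 1.5 log2 units for U87MG at 200 nM, with 4.37% of calls false. For the tumours it recovered 0% and 24%, with 14.3% of calls false. For PSI, limma had 4.91% of calls false for U87MG at 200 nM and 9.89% for the MDA-MB-231 siRNA groups.

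The members and the lists were chosen with earlier results of these data known. All 34 genes are named. Library values are given, in at least 1 comparison, for genes called in both lines of an experiment or with the smallest adjusted p of their role, and for HSPA5, HERPUD1, SYVN1, SDF2L1 and DERL3, chosen after their values were seen, all called events are named, and of other lists only genes among the 3 smallest adjusted p-values of a 200 nM comparison are. Sequences come from RefSeq promoters and GENCODE 29 transcripts.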

Additional observations from a re-analysis of the deposited data

Results flagged for a closer look

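In the tumours, 12 of 70 groups of 5 values (34 genes and the XBP1 intron, control and treated) held 1 tumour far from the other 4 by Dixon's criterion, or 17.1%, where chance flags about 1 in 20. In 11 of them the highest tumour stood apart. These were DNAJC3 at 177.4 CPM among controls and 152.2 CPM among treated tumours, UGGT1 at 110.5 and 75.22 CPM, SEL1L at 74.45 and 59.55 CPM, CANX at 449.8, OS9 at 242.4 and ATF6 at 58.14 CPM among controls, and DNAJB9 at 8.802 and PDIA6 at 287.4 CPM among treated tumours. Each is replicate 1 of its group, the tumour with the lowest mitochondrial share in that group. For the XBP1 intron the control replicate 1 was the lowest, with a PSI of 0.914. The genes share these tumours, so the values do not stand for separate events.

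The response to ASO-1570 differed between the lines by an interaction test for 20 gene and dose pairs. As MDA-MB-231 minus U87MG log2 changes, these were at 200 nM and 50 nM: HSPA5, -0.56 and -0.76; DNAJB9, -0.92 and -0.73; DNAJC3, -1.04 and -0.83; PDIA3, -0.32 and -0.32; HERPUD1, -0.56 and -0.63; SYVN1, -0.29 and -0.51; and PDIA5, 0.89 and 0.65. EDEM1 was called at 200 nM alone, at -0.81. At 50 nM alone DNAJB11 differed by -0.53, SDF2L1 by -0.95, OS9 by -0.23, SEL1L by 0.33 and EDEM3 by 0.53.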

How the results depend on the processing

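Of 295 recomputed counts of called genes or events, 239 stayed within 1.5 times the reported count and 56 moved, and no called value changed sign. Some that were not called did: HSPA5 in U87MG at 50 nM went from 0.05 to -0.04 without the low-count filter, HERPUD1 in U87MG at 200 nM from -0.03 to 0.02 without control replicate 1, and DERL1 in MDA-MB-231 at 200 nM from -0.05 to 0.04 without treated replicate 2. In the tumours HYOU1 went from -0.16 to 0.14 without control replicate 1, and without the 4 tumours above 50% mitochondrial counts it was 0.20 and XBP1 0.08. Of the gene values 2614 kept their side of the threshold, 142 lost it and 64 gained it. Genes higher in U87MG at 200 nM numbered 6 and became 3 with DESeq2's size factors, 1 with the replicate block, 1 without the low-count filter and 0 to 3 with a library left out, 0 without control replicate 3. Those higher in U87MG at 50 nM went from 5 to 2 without the filter and 3 to 5 with a library left out. Leaving out a library gave 0 to 1 higher in MDA-MB-231 at 200 nM, and 14 to 24 (MDA-MB-231) and 13 to 19 (U87MG) lower at 200 nM and 19 to 24 and 19 to 23 at 50 nM. The higher line differences at 200 nM went from 1 to 2 with DESeq2. With the siRNA in MDA-MB-231 the 3 lower genes became 8 with the block, 5 with DESeq2, 1 to 7 with a library left out and 7 without replicate 3 of both groups, and the 1 higher became 0 with DESeq2's size factors, DESeq2, no filter or without replicate 3 of both groups, 2 with the block and 0 to 1 with a library left out. In U87MG the 1 lower became 4 with the block, 3 with DESeq2, 3 with 2 groups only and 0 to 1 with a library left out, and the 1 higher became 2 with the block, with DESeq2 and with 2 groups only. The 1 gene higher with 50 nM ASO than with siRNA in U87MG became 2 with DESeq2 and with its size factors, and the 1 higher at 200 than at 50 nM became 0 with the size factors and with the block. Called events went from 30 to 18 to 34 in U87MG at 200 nM with a library left out, from 8 to 2 with the block, 15 with all groups in the fit and 3 to 17 with a library left out in U87MG at 50 nM, and from 0 in MDA-MB-231 to 1 with logit PSI, 4 with all groups and 0 to 1 with a library left out at 200 nM, 1 with all groups at 50 nM and 2 with all groups in the siRNA experiment. The cause of these shifts was not tested.

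The labels do not say that replicate numbers pair the samples. The rule that every pair's correlation exceed 0.1 was not met in the lines or in the tumours. Over all genes the correlations ran from -0.088 to 0.102 in the lines, the highest for replicate 3 of the MDA-MB-231 siRNA groups. Not every library was closest to its own number. In the tumours the correlations were 0.774, -0.209, -0.097, -0.195 and 0.42. With so few samples in a group this rule cannot exclude pairing. Under the replicate block 207 gene values kept their side of the threshold, 18 lost it and 11 gained it, and of the event values 99 kept it and 16 lost it. PSI values carry no read numbers, so the precision of a single value cannot be given.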
